A study of Mus musculus with 9 samples.

Results

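The genes described here encode the proteasome and its interferon-inducible variant, the immunoproteasome. They are the 43 genes, of 55418 in the count table, whose symbol is Psma, Psmb, Psmc, Psmd or Psme followed only by digits. All 43 had at least 1 read in the 9 libraries, and 41 had enough reads to be tested. By role, 5 are inducible (Psmb8, Psmb9, Psmb10, Psme1 and Psme2) and 31 are constitutive, namely 7 alpha and 7 beta subunits of the core particle with 6 ATPase and 11 non-ATPase subunits of the cap. A further 3 are chaperones of cap assembly, 2 are activators that are not interferon-inducible, and 2 are restricted to testis or thymus. The study depleted Eya3, a transcriptional co-activator and phosphatase, from 66cl4 cells, a mouse line labelled as triple negative breast cancer, and sequenced bulk mRNA. KD2 cells carried one hairpin against Eya3, KD1 cells carried the other, and SCR cells carried a scramble hairpin, with 3 libraries in each of the 3 groups. All 3 groups, SCR included, were transduced with a hairpin vector and kept in 2.5 ug/ml puromycin, and the labels name no interferon or other cytokine. The labels call the libraries biological replicates without describing separate cultures or transductions, so p-values measure the spread between these libraries. The sources used here do not say whether each line was a pool or a clone.

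The proteasome is the protease complex that degrades ubiquitin-tagged proteins in the cytosol and nucleus. Its barrel-shaped core is built from rings of alpha subunits, which gate the entrance, and beta subunits, of which Psmb5, Psmb6 and Psmb7 carry the active sites, while the cap binds, deubiquitinates, unfolds and feeds in the substrate. Interferons raise Psmb8, Psmb9 and Psmb10, which take the places of Psmb5, Psmb6 and Psmb7 in newly built cores, and Psme1 and Psme2, which form a ring-shaped activator, and the resulting immunoproteasome favours peptides that fit class I MHC molecules.

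Library totals ran from 27758862 counts in KD2 replicate 2 to 52691960 in KD2 replicate 1. Levels are given as CPM, counts scaled to library size, corrected by TMM for library composition, and differences as log2 fold changes ± SE from edgeR's quasi-likelihood test, with p-values Benjamini-Hochberg adjusted over 15914 genes. A gene is said to rise or fall where its adjusted p was under 0.05. The targeted gene, Eya3, had 37.5 ± 3.02 CPM in KD2, 23.1 ± 1.71 in KD1 and 72.9 ± 5.56 in SCR (SD, n = 3 each), with log2 fold changes of -0.96 ± 0.08 in KD2 and -1.66 ± 0.08 in KD1 against SCR. Of 6 epithelial markers, 4 were tested, with 3 higher and 0 lower in KD2, and 3 higher and 1 lower in KD1. Krt8 was at 792.5 CPM in KD2, 1315 in KD1 and 678.9 in SCR. Krt18 was at 2.62 CPM in KD2, 0.955 in KD1 and 0.0277 in SCR, and Krt14 at 11.8 in KD2, 0.561 in KD1 and 1.32 in SCR. Krt5 and Cdh1 averaged under 1 CPM in each group, and Epcam had no counts. Of the receptors that a triple negative tumour lacks, Pgr had no counts, but RNA of the other two was present in every group. Esr1, the oestrogen receptor, was at 16.0 CPM in KD2, 14.8 in KD1 and 7.12 in SCR, and rose with both hairpins. Erbb2 was at 67.1 CPM in KD2, 65.4 in KD1 and 53.6 in SCR. Summed over 6 fibroblast markers, levels ran from 28.8 to 41.4 CPM in KD2, 42.7 to 45.3 in KD1 and 28.4 to 35.4 in SCR, mostly Pdgfra. Within that sum Col1a1 had 287 reads in KD2, 154 in KD1 and 525 in SCR, and Col1a2 had 14 in KD2, 528 in KD1 and 12 in SCR. Over 6 endothelial markers they ran from 2.11 to 2.66 CPM in KD2, 2.70 to 3.70 in KD1 and 3.66 to 4.35 in SCR, of which Cdh5 had 253 reads in KD2, 31 in KD1 and 530 in SCR, and Emcn had 0 in KD2, 264 in KD1 and 2 in SCR.

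Short stretches around motif matches are shown because members of both classes are known targets of these regulators: the interferon factors for the inducible subunits, and Nfe2l1, which binds the antioxidant response element, for the constitutive ones. Start-site windows of 250 bases before to 50 after the start were taken from RefSeq (build GRCm38.p6), where 36 of the 43 members had an entry, and both strands were searched. Capitals mark the match, and each stretch is 30 bases of the gene's own strand. The first pair matched TTCNNNGAA (the gamma-activated site), the next 3 matched GAAA, any 2 bases and GAAA again on the opposite strand (the core of the interferon-stimulated response element), and the last pair matched TGACNNNGC (the antioxidant response element core).
Psmb8: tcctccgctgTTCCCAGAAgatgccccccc
Psmd2: gcgcgtggccTTCTGGGAAaaggggcggtg
Psme1: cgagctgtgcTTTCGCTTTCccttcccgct
Psmb3: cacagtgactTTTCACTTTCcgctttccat
Psmd4: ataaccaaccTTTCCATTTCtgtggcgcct
Psmb5: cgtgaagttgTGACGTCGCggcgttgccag
Psmb6: ctaaagagagTGACGGAGCgctttacgacg
The Psmb8 stretch is at chr17:34198088-34198117 on the plus strand, with the match 97 to 89 bases before the RefSeq start. GENCODE places the start of Psmb8 farther upstream, so the stretch lies inside the annotated gene. The Psme1 stretch is at chr14:55578493-55578522 on the plus strand, also inside the annotated gene, and the Psmb5 stretch at chr14:54618023-54618052 on the minus strand. The stretches of Psmd2, Psmb3, Psmd4 and Psmb6 are at chr16:20651646-20651675 (plus), chr11:97703261-97703290 (plus), chr3:95042675-95042704 (minus) and chr11:70525338-70525367 (plus).

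Among the inducible members, which had 6 windows for 5 genes, TTCNNNGAA was found for 1 gene (Psmb8) and the GAAA pair for 1 (Psme1). Among the 25 constitutive subunits with an entry, which had 27 windows, TTCNNNGAA was found for 1 (Psmd2) and the GAAA pair for 2 (Psmb3 and Psmd4). Over all 27025 genes with a RefSeq window the shares were 9.55% for TTCNNNGAA and 3.99% for the GAAA pair, and no member held both. TGACNNNGC was found for none of the 5 inducible genes and for 4 of the 25 constitutive ones (Psmb5, Psmb6, Psmc6 and Psmd12), against 14% of all genes with a window. CCAAT was found for 1 of the 5 inducible genes (Psmb9) and 10 of the 25 constitutive ones, against 41.1%. These counts describe letters in the windows and carry no test.

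Against SCR, 4 of the 5 inducible members rose in KD2 cells and the fifth, Psmb8, was not called there, whereas all 5 fell in KD1 cells. Psmb8, the inducible counterpart of the chymotrypsin-like subunit Psmb5, was nearly silent in KD1. Its level was 12.6, 16.6 and 12.3 CPM in the KD2 libraries, 0.0999, 0.0468 and 0.0865 CPM in the KD1 libraries, and 12.9, 10.5 and 12.9 CPM in the SCR libraries. No KD1 library came near any library of the other groups, whereas KD2 and SCR overlapped. In reads, Psmb8 had 1612 in KD2, 9 in KD1 and 1721 in SCR, summed over 3 libraries. Per unit of library size, the summed counts of KD2 were 174.3 times those of KD1 (95% exact interval 91.6 to 381.9), and those of SCR were 157.1 times those of KD1 (82.6 to 344.2), intervals that cover counting error only. By edgeR's quasi-likelihood test, Benjamini-Hochberg adjusted, the log2 fold change was 0.18 ± 0.12 in KD2 against SCR (adjusted p = 0.24) and -7.25 ± 0.25 in KD1 against SCR (adjusted p = 5.82e-12). It ranked 51 from the lowest among 15914 genes in KD1 against SCR, and KD2 exceeded KD1 by 7.43 ± 0.25.

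Psmb9, the counterpart of the caspase-like subunit Psmb6, was the least abundant inducible member in SCR after length is taken into account. It had 6.40, 9.72 and 6.94 CPM in KD2, 1.42, 1.47 and 1.76 in KD1, and 5.13, 6.10 and 5.99 in SCR. The groups did not overlap, and KD2 replicate 2 was the highest library, as it was for Psmb8. By edgeR's quasi-likelihood test, Benjamini-Hochberg adjusted, Psmb9 rose by 0.40 ± 0.14 on the log2 scale in KD2 (adjusted p = 0.0335) and fell by 1.89 ± 0.17 in KD1 (adjusted p = 2.84e-07). The KD2 call rested on single libraries: without KD2 replicate 2 the value was 0.22 (adjusted p = 0.166), without SCR replicate 1 it was 0.33 (adjusted p = 0.129), and without SCR replicate 3 it was 0.43 (adjusted p = 0.0587). It was also lost when only KD2 and SCR were fitted (adjusted p = 0.0553) and with a minimum of 5 CPM in 3 libraries (adjusted p = 0.0602).

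Psmb10, the counterpart of the trypsin-like subunit Psmb7, had the highest level per mRNA length of the 3 inducible catalytic subunits in every group. It had 63.4, 68.5 and 64.6 CPM in KD2, 32.1, 36.4 and 36.6 in KD1, and 51.7, 47.6 and 47.1 in SCR, with no overlap between groups. By edgeR's quasi-likelihood test, Benjamini-Hochberg adjusted, it rose by 0.42 ± 0.07 in KD2 (adjusted p = 2.15e-04) and fell by 0.48 ± 0.07 in KD1 (adjusted p = 5.11e-05).

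Psme1, the alpha chain of the inducible activator, had 164.6, 172.6 and 173.2 CPM in KD2, 97.7, 104.7 and 105.1 in KD1, and 123.6, 112.8 and 121.2 in SCR. Its groups did not overlap, and its change was the largest of the inducible members in KD2 and the smallest in KD1. By edgeR's quasi-likelihood test, Benjamini-Hochberg adjusted, it rose by 0.51 ± 0.06 in KD2 (adjusted p = 1.33e-05) and fell by 0.22 ± 0.06 in KD1 (adjusted p = 0.00966). Psme2, the beta chain, had 84.1, 87.6 and 103.9 CPM in KD2, 40.2, 43.9 and 48.9 in KD1, and 80.2, 75.8 and 79.9 in SCR. The lowest KD2 library was 84.1 CPM and the highest SCR library 80.2 CPM, while KD1 was well apart from both. Psme2 rose by 0.23 ± 0.09 in KD2 (adjusted p = 0.046) and fell by 0.83 ± 0.09 in KD1 (adjusted p = 1.5e-06, edgeR's quasi-likelihood test, Benjamini-Hochberg adjusted). The adjusted p of the rise in KD2 was 0.0609 with RLE size factors, 0.0679 with DESeq2, and 0.106 with a minimum of 5 CPM. The call was also lost without any single SCR library, without KD1 replicate 2 and without KD2 replicate 3 (0.13, adjusted p = 0.204). Psme2b, a near-identical retrogene copy, had 14.1 ± 1.75 CPM in KD2, 6.35 ± 0.61 in KD1 and 12.4 ± 0.63 in SCR (SD, n = 3 each), and the sources used here do not give how reads were divided between the copies.

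**Figure D1:**
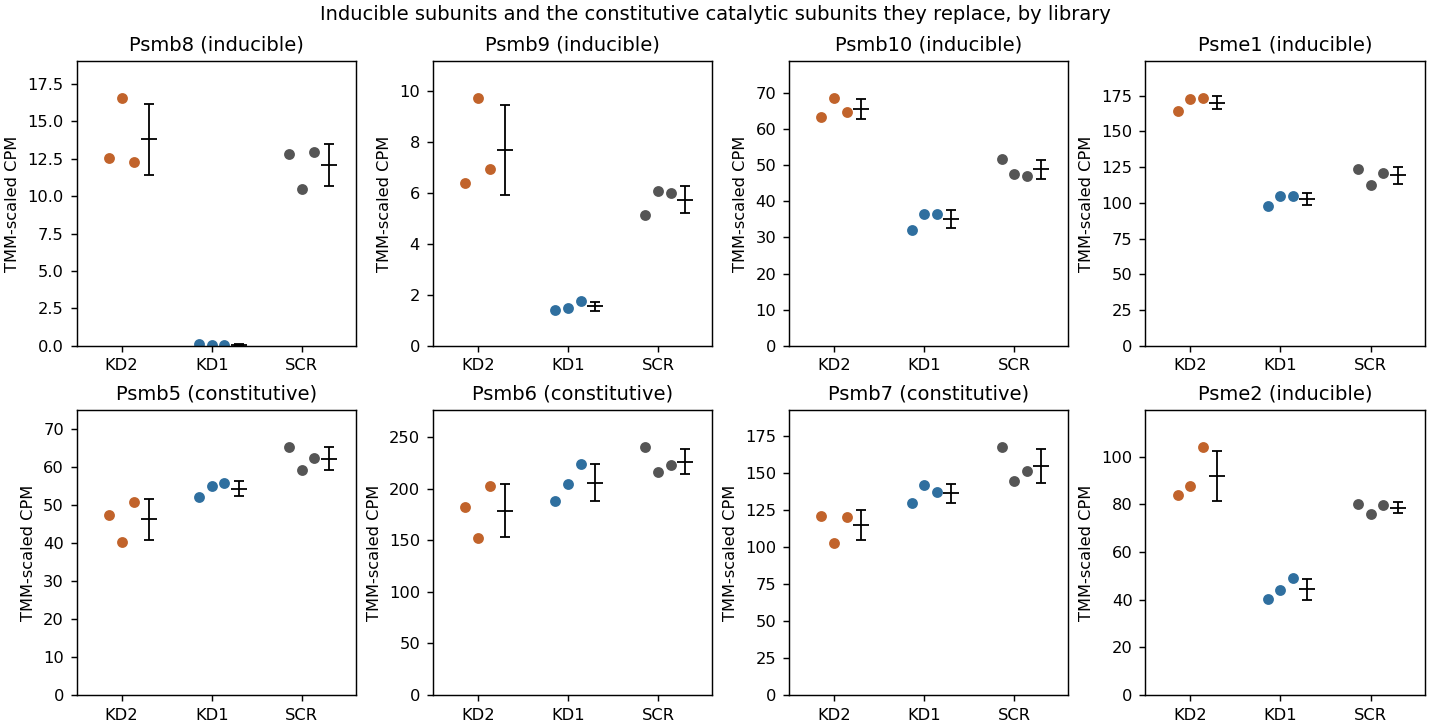
TMM-scaled CPM of the 5 inducible members and of the constitutive subunits Psmb5, Psmb6 and Psmb7 in each of the 9 libraries (points, 3 each for KD2, KD1 and SCR), with bars for the mean ± SD and axes that start at 0. Psmb8 lies under 0.1 CPM in every KD1 library and between 10.5 and 16.6 CPM in the KD2 and SCR libraries, while Psmb5, Psmb6 and Psmb7 keep most of their level in every group.

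As a class, the inducible members numbered 4 higher and 0 lower in KD2 against SCR, with a median log2 fold change of 0.40 against -0.00 for all tested genes, of which 45.3% were called, 23% higher and 22.3% lower. Without SCR replicate 1, without SCR replicate 3 or with a minimum of 5 CPM, that count of 4 was 2. The rise of Psmb9 or of Psme2 was also lost in other settings, as given for each gene above. In KD1 against SCR they numbered 0 higher and 5 lower, where 50.3% of all tested genes were called, 24.1% higher and 26.2% lower. Their median was -0.83 there, against 0.01 for all tested genes. KD2 and KD1 were also compared directly, without SCR. All 5 were higher in KD2, with a median difference of 1.05, where 49.6% of tested genes were called, 27% higher, and the median of all was 0.00. Every KD2 library lay above every SCR library for the 4, as for 27.4% of all tested genes, and every KD1 library lay below every SCR library for all 5, as for 30.4%. Every KD2 library lay above every KD1 library for all 5, against 29.5% of all tested genes. The 2 comparisons with SCR share its libraries and are not independent of each other.

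Leukocytes carry the inducible subunits without stimulation, so their markers were read beside this result. Summed over 17 leukocyte markers, levels ran from 13.1 to 14.6 CPM in KD2, 5.97 to 7.52 in KD1 and 12.9 to 14.04 in SCR, and 6 of the 17 were tested. Most of that sum was Cd68, a lysosomal protein, at 12.1 CPM in KD2, 3.54 in KD1 and 9.64 in SCR. Ptprc, which defines leukocytes, was at 0.0366 CPM in KD2, 0.203 in KD1 and 0.641 in SCR. The 6 tested markers did not move together: Ptprc and Coro1a fell with both hairpins, C1qb rose with both, Cd68 rose in KD2 and fell in KD1, Cd3g rose in KD1 alone, and Cd79a was called with neither. C1qb had 44 reads in KD2, 32 in KD1 and 4 in SCR, Tyrobp had 0 in KD2, 15 in KD1 and 0 in SCR, and C1qa and C1qc had none in any group. The part of such cells in the inducible result was not tested, and in bulk RNA fewer cells of a type and less RNA per cell cannot be told apart.

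The exchange of catalytic subunits was described by the ratio of each inducible subunit to its constitutive partner within a library, per length of the principal mRNA. Psmb8 stood at 14.7%, 22.7% and 13.4% of Psmb5 in KD2, at 0.106%, 0.0471% and 0.0856% in KD1, and at 10.9%, 9.82% and 11.5% in SCR. The KD1 ratio was thus 134.8-fold lower than that of SCR, and the KD2 ratio was 1.57-fold higher with no overlap. In KD2, however, Psmb8 itself was not called against SCR, at a log2 fold change of 0.18, whereas Psmb5 fell by 0.43. The higher KD2 ratio therefore includes a lower level of the partner. Psmb9 stood at 2.63 ± 1.00% of Psmb6 in KD2, 0.445 ± 0.02% in KD1 and 1.51 ± 0.22% in SCR (SD, n = 3 each). Psmb10 stood at 50.9 ± 6.86% of Psmb7 in KD2, 22.7 ± 0.82% in KD1 and 28.0 ± 0.97% in SCR (SD, n = 3 each). All 3 ratios had the same order, KD2 above SCR above KD1, without overlap. For each, the exact two-sided permutation test gave p = 0.1, the smallest that 3 against 3 libraries allow. The level of a ratio depends on the length used: over all annotated exons, an alternative chosen after seeing the data, Psmb10 stood at 115.4% of Psmb7 in KD2, 51.4% in KD1 and 63.4% in SCR, with the folds between groups unaltered.

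**Figure D2:**
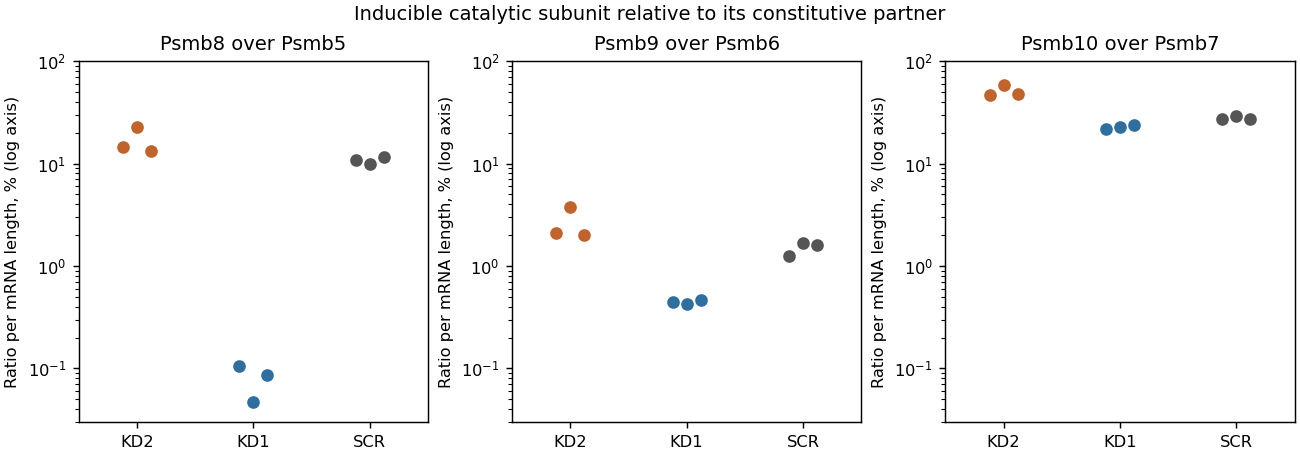
Ratio per mRNA length, in percent on a log axis, of Psmb8 to Psmb5, Psmb9 to Psmb6 and Psmb10 to Psmb7 in each library (points, 3 each for KD2, KD1 and SCR). The KD1 points lie lowest in each panel, at 0.0471% to 0.106% for Psmb8, and the KD2 points lie highest.

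Within the activator pair, the partners did not move by the same amount. Psme2 per length stood at 62.3 ± 6.05% of Psme1 in KD2, 49.9 ± 3.34% in KD1 and 76.3 ± 1.38% in SCR (SD, n = 3 each), so its share was lower than in SCR with either hairpin. Psme1 stood at 183.3 ± 12.6% of Psme3, the nuclear activator that is not interferon-inducible, in KD2, at 103.7 ± 7.65% in KD1 and at 117.3 ± 3.66% in SCR (SD, n = 3 each). The exact two-sided permutation test gave p = 0.1 for each of these against SCR, again the smallest possible.

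Psmb8 and Psmb9 lie within the class II region of the MHC on chromosome 17 (mm10). Psmb9 spans 34181987 to 34187764 on the minus strand, Tap1 34187553 to 34197225, Psmb8 34197721 to 34201454 and Tap2 34203527 to 34216321, all 3 on the plus strand. Psmb9 and Tap1 overlap by 212 bases on opposite strands, and since strand handling in the counting is not given, reads in the overlap cannot be assigned. Tap1 and Tap2, the subunits of the transporter that carries the peptides into the endoplasmic reticulum, were measured too. Tap1 had 27.9 ± 8.06 CPM in KD2, 3.26 ± 0.34 in KD1 and 7.94 ± 0.77 in SCR, and Tap2 had 24.5 ± 8.77 in KD2, 6.86 ± 0.83 in KD1 and 15.6 ± 0.87 in SCR (SD, n = 3 each). By edgeR's quasi-likelihood test, Benjamini-Hochberg adjusted, Tap1 rose by 1.80 in KD2 (adjusted p = 8.29e-06) and fell by 1.29 in KD1 (adjusted p = 2.28e-04), and Tap2 rose by 0.63 in KD2 (adjusted p = 0.0295) and fell by 1.18 in KD1 (adjusted p = 0.00134). The KD2 libraries had 23.05, 37.2 and 23.44 CPM of Tap1 and 20.5, 34.5 and 18.3 CPM of Tap2, with replicate 2 the highest. Without 1 library, the KD2 rise ranged from 1.55 to 1.92 for Tap1 and from 0.32 to 0.80 for Tap2. In KD1 the log2 fold change of Psmb8 was -7.25. It was -1.29 for Tap1, which ends 495 bases upstream, and -1.18 for Tap2, which starts 2072 bases downstream. Brd2, a bromodomain gene in the same window of 100 kb on either side, fell by 0.25 in KD2 and by 0.24 in KD1. H2-DMa, a class II chaperone gene whose span overlaps that of Brd2 on the opposite strand, was the only other tested gene of that window, and it fell by 1.26 in KD2 (adjusted p = 7.54e-06) and by 0.38 in KD1 (adjusted p = 0.027, edgeR's quasi-likelihood test, Benjamini-Hochberg adjusted). Psme1 (55578123 to 55581529, plus strand) and Psme2 (55587441 to 55591113, minus strand) lie 5911 bases apart on chromosome 14. Psmb10 is alone among the inducible members on chromosome 8, at 105935735 to 105938444.

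The 31 constitutive subunits moved in both directions, and in KD1 each of them changed by less than Psmb8 did. Psmd8, however, fell further in KD1 (-1.24) than the inducible Psme2 (-0.83), Psmb10 (-0.48) and Psme1 (-0.22). Psmc4 (-0.62) and Psmc2 (0.59) also moved further there than Psmb10 and Psme1. In KD2 against SCR, 2 rose, 17 fell and 12 were not called, with a median log2 fold change of -0.26, where 22.3% of all tested genes fell. In KD1 against SCR, 5 rose and 7 fell, with a median of -0.12, where 24.1% of all tested genes rose and 26.2% fell. In KD2 against KD1, 2 were higher and 11 lower, with a median of -0.18, where 27% of all tested genes were higher and 22.5% lower. Only Psmd8 changed by more than 2-fold against SCR, and only in KD1.

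These counts depended on single libraries. The 17 that fell in KD2 were 10 without KD2 replicate 2 or without SCR replicate 1. The 7 that fell in KD1 were 2 without SCR replicate 1, 3 without SCR replicate 3, 4 without KD1 replicate 1, 4 without KD1 replicate 2, and 11 without KD2 replicate 3. The 11 that were lower in KD2 than in KD1 were 6 without KD2 replicate 2, KD1 replicate 2 or KD1 replicate 3, 7 without KD2 replicate 1, and 19 without KD2 replicate 3. The 2 that rose in KD2 were 1 without SCR replicate 2 or without KD2 replicate 1. Without 1 library, 16190 to 16272 genes were tested. Of these, 2952 to 3817 fell in KD2, 3808 to 4472 fell in KD1, and 2912 to 3902 were lower in KD2 than in KD1.

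Library by library, the median of the 31 constitutive subunits relative to the SCR mean, on the log2 scale, was -0.22, -0.47 and -0.11 in KD2, -0.18, -0.08 and -0.05 in KD1, and 0.08, -0.09 and 0.01 in SCR. KD2 replicate 2 was the lowest, and in SCR replicate 2 every one of the 31 lay below the SCR mean, so the subunits shifted together within a group. By mRNA length, 5 of the 31 have up to 1000 bases, 19 have over 1000 and up to 2000, and 7 have over 2000 and up to 4000. Medians of tested genes in these classes, taken only over genes with a mean of at least 10 CPM, also differed between libraries. They did not always move with those of the subunits. The class of over 1000 and up to 2000 bases had medians of -0.06, -0.16 and -0.02 in KD2, -0.07, 0.01 and -0.01 in KD1, and 0.05, -0.03 and -0.01 in SCR. The class of up to 1000 bases had medians of -0.17, -0.34 and 0.01 in KD2, -0.045, 0.09 and 0.19 in KD1, and 0.05, -0.03 and -0.02 in SCR. KD2 replicate 2 was the lowest library in both classes, whereas KD1 replicates 2 and 3 were above the SCR mean in the shorter class and below it for the subunits. With a term for mRNA length in each library, added after seeing the data, 2 constitutive subunits rose and 16 fell in KD2 with a median of -0.18, and 5 rose and 13 fell in KD1 with a median of -0.14. In KD2 against KD1, 3 were then higher and 9 lower, with a median of -0.05. Of the 15914 genes in that fit, 3435 rose and 4149 fell in KD2, and 4020 rose and 4663 fell in KD1. Between the hairpins, 4248 of them were higher in KD2 and 3875 lower. The inducible counts were the same with that term, 4 higher in KD2 and 5 lower in KD1.

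**Figure D3:**
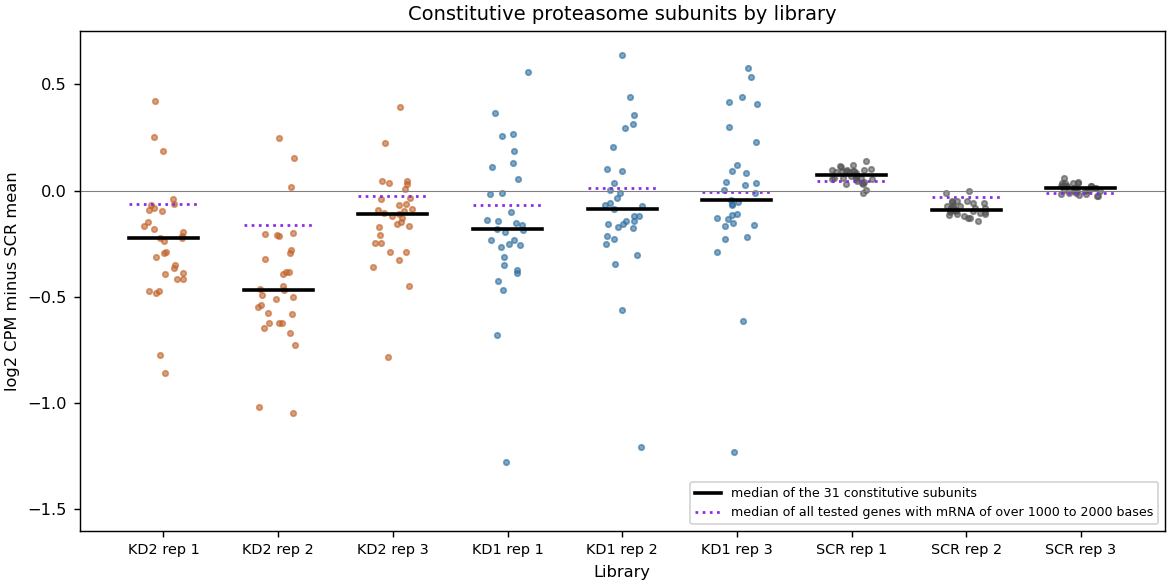
Log2 CPM minus the log2 SCR mean for each of the 31 constitutive subunits (points) in each library, with the subunits' median as a solid line. The dotted line is the median of tested genes with mRNAs of over 1000 to 2000 bases and a mean of at least 10 CPM. The subunits lie lowest in KD2 replicate 2, at a median of -0.47, where the dotted line is also lowest, at -0.16.

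Of the alpha subunits, which form the outer rings of the core and its gate, 4 of 7 fell in KD2 (Psma1, Psma2, Psma4 and Psma6) and 0 of 7 were called in KD1, where 22.3% of all tested genes fell in KD2 and 50.3% were called in KD1. The largest fall was that of Psma6, with 134.7, 113.9 and 183.7 CPM in KD2, 166.7, 181.7 and 220.8 in KD1, and 238.3, 222.5 and 231.4 in SCR. The SCR libraries were closely spaced and lay above all others, while KD2 and KD1 overlapped. The log2 fold change was -0.68 ± 0.16 in KD2 (adjusted p = 0.00573) and -0.28 ± 0.16 in KD1 (adjusted p = 0.165, edgeR's quasi-likelihood test, Benjamini-Hochberg adjusted). Psma5 was called in neither comparison with SCR, at -0.39 in KD2 and 0.30 in KD1, but differed between the hairpins by -0.69 ± 0.16 (adjusted p = 0.00509 in the same fit). The other 5 alpha subunits lay between -0.34 and -0.23 in KD2 and between -0.18 and -0.02 in KD1.

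All 7 constitutive beta subunits fell in KD2, by 0.24 (Psmb3) to 0.43 (Psmb7), where 22.3% of all tested genes fell. In each of them the KD2 libraries lay below every SCR library. Groups stood apart in that direction for 27% of all tested genes. The active-site subunits Psmb5 and Psmb7 fell furthest. Psmb6, which also carries an active site, was at -0.339 ± 0.096 in KD2. Psmb4, which carries none, was level with it at -0.337 ± 0.083, so the order did not set active-site subunits apart. Psmb5, the chymotrypsin-like subunit, had 47.3, 40.3 and 50.8 CPM in KD2, 52.0, 54.9 and 55.8 in KD1, and 65.1, 59.1 and 62.2 in SCR. Its 3 groups did not overlap, with KD2 lowest and SCR highest. It fell by 0.43 ± 0.08 in KD2 (adjusted p = 5.78e-04) and was not called in KD1 at -0.20 ± 0.08 (adjusted p = 0.0541, edgeR's quasi-likelihood test, Benjamini-Hochberg adjusted). In KD1 it passed the threshold without the filter on low counts (adjusted p = 0.0449), with only the groups compared (0.0213), with the length term (0.00165), and without SCR replicate 2 or KD2 replicate 2 or 3. Psmb6, the caspase-like subunit, and Psmb7, the trypsin-like one, fell by 0.34 ± 0.10 and 0.43 ± 0.08 in KD2, and were not called in KD1 at -0.14 ± 0.10 and -0.18 ± 0.08.

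Psmb1 and Psmb4, structural beta subunits without an active site, were called in opposite directions with the hairpins. Psmb4 had 177.6, 161.6 and 203.3 CPM in KD2, 275.0, 292.2 and 304.6 in KD1, and 243.7, 215.4 and 226.7 in SCR, with no overlap between groups. KD1 libraries lay wholly above SCR libraries for 28.9% of all tested genes, and KD2 libraries wholly below KD1 libraries for 24.8%. Psmb4 fell by 0.34 ± 0.08 in KD2 (adjusted p = 0.00406) and rose by 0.35 ± 0.08 in KD1 (adjusted p = 0.0027, edgeR's quasi-likelihood test, Benjamini-Hochberg adjusted). Psmb1 fell by 0.26 ± 0.10 in KD2 (adjusted p = 0.0369) and rose by 0.31 ± 0.10 in KD1 (adjusted p = 0.014) in the same fit, but its KD2 call was lost without any single SCR library, without KD2 replicate 1 or 2, or without KD1 replicate 2. Its KD1 call was lost without SCR replicate 2 or KD1 replicate 3. Psmb2 and Psmb3 fell in KD2 by 0.27 and 0.24, and stood at -0.08 and -0.12 in KD1.

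Of the 6 ATPases, which form the ring that unfolds the substrate, Psmc1 rose with both hairpins, by 0.35 ± 0.07 in KD2 and 0.40 ± 0.07 in KD1. Psmc4 fell with both, by 0.52 ± 0.07 in KD2 and 0.62 ± 0.07 in KD1. Psmc2 had 140.1, 129.2 and 146.4 CPM in KD2, 220.8, 233.5 and 223.6 in KD1, and 160.3, 138.0 and 152.1 in SCR. Its KD1 libraries lay above all the others, and KD2 and SCR overlapped. It was not called in KD2 at -0.12 ± 0.07 (adjusted p = 0.207) and rose by 0.59 ± 0.07 in KD1, the largest rise of any member there (adjusted p = 5.82e-06, edgeR's quasi-likelihood test, Benjamini-Hochberg adjusted). The difference KD2 minus KD1 was -0.71 ± 0.07 for Psmc2. Psmc3, Psmc5 and Psmc6 were not called in any of the 3 comparisons.

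Among the 11 non-ATPase cap subunits, 1 rose and 5 fell in KD2, and 1 rose and 6 fell in KD1, against 45.3% of all tested genes called in KD2 and 50.3% in KD1. Psmd8, a lid subunit (chromosome 7, 29174188 to 29180701, mm10), fell furthest. It had 281.8, 247.3 and 296.8 CPM in KD2, 211.1, 221.4 and 218.0 in KD1, and 544.9, 468.0 and 523.2 in SCR. The groups did not overlap, with KD1 lowest and SCR highest. Psmd8 fell by 0.90 ± 0.08 in KD2 (adjusted p = 5.05e-07) and by 1.24 ± 0.08 in KD1 (adjusted p = 5.64e-09, edgeR's quasi-likelihood test, Benjamini-Hochberg adjusted), with KD2 above KD1 by 0.35 ± 0.08. Per mRNA length it was the most abundant member in SCR, at 332.5 CPM per kb, and ranked 3 in KD2 at 178.8 and 9 in KD1 at 140.8 CPM per kb.

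Psmd4, a ubiquitin receptor of the cap, and Psmd11, a lid scaffold, were called in opposite directions with the hairpins. Psmd4 had 161.5, 148.2 and 156.0 CPM in KD2, 221.0, 230.2 and 217.2 in KD1, and 199.8, 172.6 and 183.8 in SCR, so KD2 lay below SCR and KD1 above it without overlap. It fell by 0.26 ± 0.07 in KD2 (adjusted p = 0.00672) and rose by 0.27 ± 0.07 in KD1 (adjusted p = 0.00428, edgeR's quasi-likelihood test, Benjamini-Hochberg adjusted). Psmd11 had 215.6, 200.9 and 211.0 CPM in KD2, 168.4, 160.6 and 154.1 in KD1, and 184.7, 169.8 and 188.2 in SCR. It stood the other way round, with KD2 highest and KD1 lowest. It rose by 0.21 ± 0.07 in KD2 (adjusted p = 0.0165) and fell by 0.17 ± 0.07 in KD1 (adjusted p = 0.0444) in the same fit. Both calls depended on single libraries: the KD2 call was lost without SCR replicate 2 or KD2 replicate 1, and the KD1 call without SCR replicate 1 or 3 or KD1 replicate 2 or 3. Psmd2, a scaffold that docks shuttle proteins, and the lid subunits Psmd6 and Psmd13 fell with both hairpins, by 0.18 to 0.41 in KD2 and 0.19 to 0.27 in KD1. The KD2 call of Psmd2 lay at the threshold (adjusted p = 0.0499, edgeR's quasi-likelihood test, Benjamini-Hochberg adjusted). Psmd7, the partner of Psmd14, was not called in KD2 at -0.14 and fell by 0.21 in KD1. Psmd1, Psmd3 and Psmd12, of scaffold and lid, were called against SCR with neither hairpin, between -0.15 and 0.09 in KD2 and between -0.14 and 0.09 in KD1. Psmd14, the deubiquitinase of the lid, was called against SCR with neither hairpin, at -0.25 in KD2 and 0.14 in KD1.

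**Figure D4:**
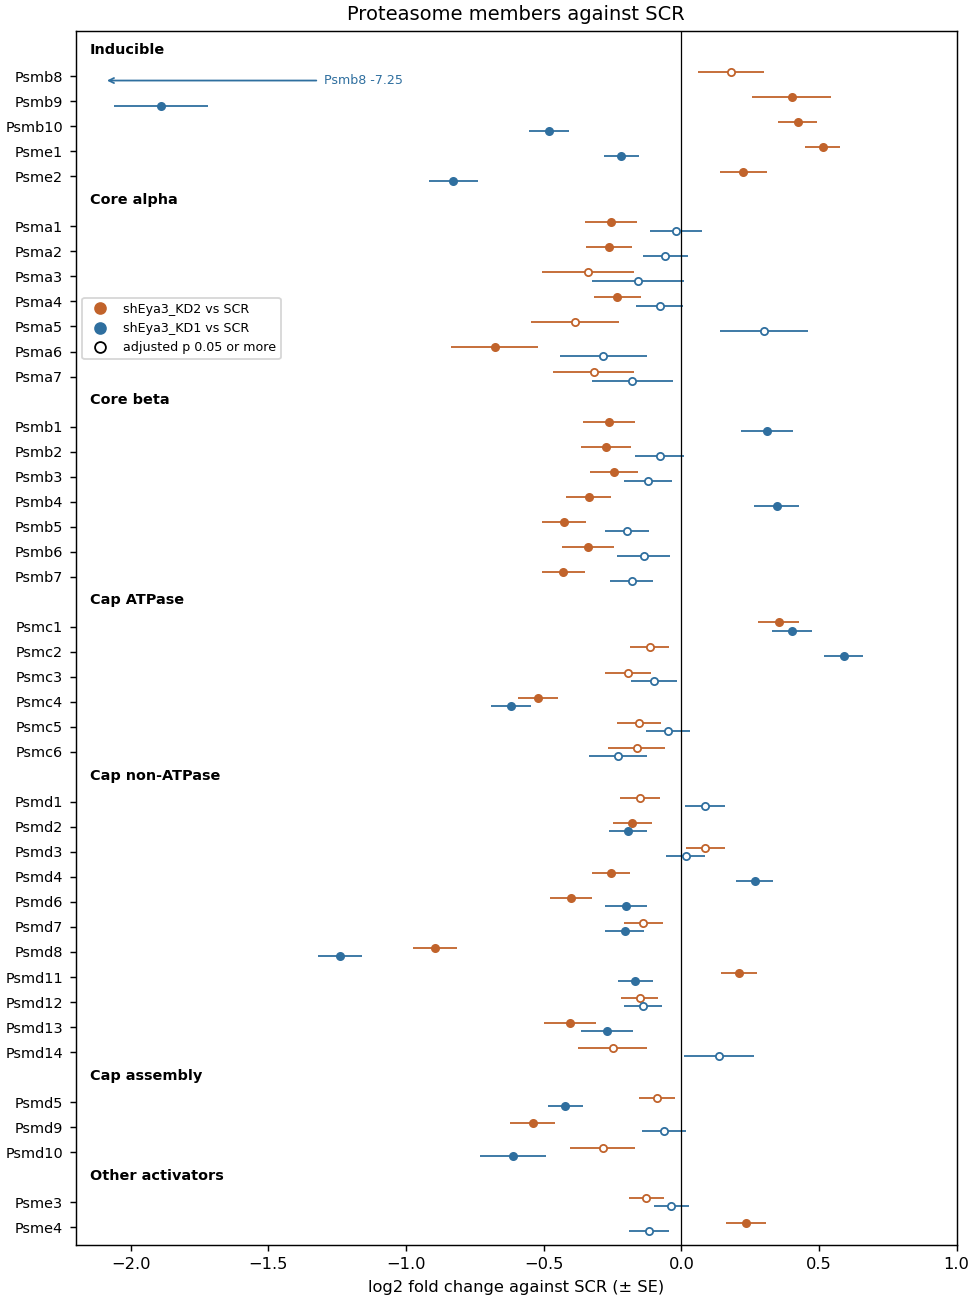
Log2 fold change against SCR (points, ± SE) of each tested member in KD2 and in KD1, grouped by role, with open points where the adjusted p was 0.05 or more and an arrow for Psmb8 in KD1 at -7.25. The inducible members lie right of 0 in KD2 and left of it in KD1, the beta subunits lie left of 0 in KD2, and Psmd8 lies far left with both hairpins.

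Of the chaperones that guide ATPase ring assembly, Psmd5 was at -0.09 in KD2 and fell by 0.42 ± 0.07 in KD1, whereas Psmd9 fell by 0.54 ± 0.08 in KD2 and was at -0.06 in KD1. Psmd10, also known as gankyrin, was not called in KD2 at -0.29 ± 0.12 and fell by 0.61 ± 0.12 in KD1. Levels of Psmd9 were 40.3, 32.5 and 40.1 CPM in KD2, 50.5, 52.9 and 54.4 in KD1, and 57.4, 53.1 and 54.1 in SCR. Only KD2 stood apart from the other groups. Psme3 was not called against SCR, at -0.13 in KD2 and -0.04 in KD1. Psme4, a single-chain activator with the longest mRNA of the tested members, rose by 0.24 ± 0.07 in KD2 (adjusted p = 0.0165, edgeR's quasi-likelihood test, Benjamini-Hochberg adjusted). With the term for mRNA length that rise was 0.02 (adjusted p = 0.778), and it was also lost without SCR replicate 1 or KD2 replicate 2. The tissue-restricted members were near 0: Psma8, the testis alpha subunit, had 1 read in KD2, 0 in KD1 and 3 in SCR, and Psmb11, the thymic catalytic subunit, had 1 in KD2, 1 in KD1 and 0 in SCR. Reads of 21 of the 43 members come from gene bodies that overlap another annotated gene, and reads in the shared bases cannot be assigned without the strand setting.

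Genes that act on the proteasome were read from lists. Of 20 tested genes for assembly and associated factors, 3 rose and 2 fell in KD2, 6 rose and 4 fell in KD1, and the medians were 0.07 in KD2 and 0.12 in KD1. Of all tested genes, 23% rose and 22.3% fell in KD2, and 24.1% rose and 26.2% fell in KD1, so the share of this list that was called was below that of all genes in KD2 and near it in KD1. Pomp, the chaperone that completes the core and is needed for immunoproteasome assembly, had 128.6 ± 18.4 CPM in KD2, 191.5 ± 15.5 in KD1 and 168.3 ± 7.06 in SCR (SD, n = 3 each). It fell by 0.39 ± 0.09 in KD2 and was at 0.19 ± 0.09, not called, in KD1. Usp14, the deubiquitinase that trims ubiquitin at the cap, was not called in KD2 at 0.16 ± 0.07 and rose by 0.71 ± 0.07 in KD1. Ipo9, an importin that brings proteasomes into the nucleus, rose by 0.53 in KD2 and 0.58 in KD1. Of the 8 genes around Nfe2l1 and Nfe2l2, 5 rose and 1 fell in KD2 with a median of 0.23, and 1 rose and 3 fell in KD1 with a median of -0.16, against 45.3% of all tested genes called in KD2 and 50.3% in KD1. Nfe2l1, which raises subunit genes when proteasome activity is short, rose by 0.22 ± 0.07 in KD2 and was not called in KD1 at -0.16 ± 0.07, and Nfe2l2 rose by 0.53 in KD2 and 0.27 in KD1.

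The interferon and NF-kB genes control the inducible subunits. Of the 16 tested, 8 rose and 1 fell in KD2 with a median of 0.24, while 0 rose and 9 fell in KD1 with a median of -0.43. Of all tested genes, 23% rose in KD2 and 26.2% fell in KD1. In KD2 against KD1, 14 of the 16 were higher and 0 lower, against 27% of all tested genes higher. Irf1, the factor that drives Psmb8, Psmb9 and Tap1 in response to interferon gamma, had 96.1 ± 9.77 CPM in KD2, 32.3 ± 0.63 in KD1 and 61.1 ± 4.24 in SCR (SD, n = 3 each). It rose by 0.65 ± 0.08 in KD2 and fell by 0.92 ± 0.08 in KD1. Stat2 and Irf9, members of the type I interferon complex, rose by 1.68 and 1.34 in KD2 and fell by 1.01 and 0.97 in KD1. The KD2 libraries had 113.4, 183.8 and 111.4 CPM of Stat2 and 92.15, 113.4 and 96.05 CPM of Irf9, with replicate 2 the highest. Without 1 library, the KD2 rise ranged from 1.41 to 1.81 for Stat2 and from 1.25 to 1.40 for Irf9. Ifngr2, a chain of the interferon gamma receptor, fell by 0.24 ± 0.07 in KD2 and by 1.19 ± 0.08 in KD1. Rela, an NF-kB subunit, was at 0.08, not called, in KD2 and fell by 0.73 in KD1. Ifnb1, the interferon beta gene, had 46 reads in KD2, 2 in KD1 and 7 in SCR. Nlrc5, the class I transactivator, was too low to test, with 26 reads in KD2, 13 in KD1 and 14 in SCR.

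Of the 8 genes that trim, carry or load the peptides, 5 rose and 2 fell in KD2 with a median of 0.43, and 1 rose and 6 fell in KD1 with a median of -0.72, against 23% of all tested genes that rose in KD2 and 26.2% that fell in KD1. Tapbp, the tapasin chaperone of loading, rose by 0.48 in KD2 and fell by 1.47 in KD1, and B2m, the light chain of class I, was at 0.16, not called, in KD2 and fell by 0.69 in KD1. The KD2 libraries had 270.8, 347.7 and 270.8 CPM of Tapbp, and its KD2 rise ranged from 0.35 to 0.54 without 1 library. Thop1, a peptidase that destroys peptides in the cytosol, fell by 0.56 in KD2 and 0.76 in KD1. Lap3, a cytosolic aminopeptidase, fell by 0.34 in KD2 and rose by 0.25 in KD1, the opposite of most genes of the list.

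**Figure D5:**
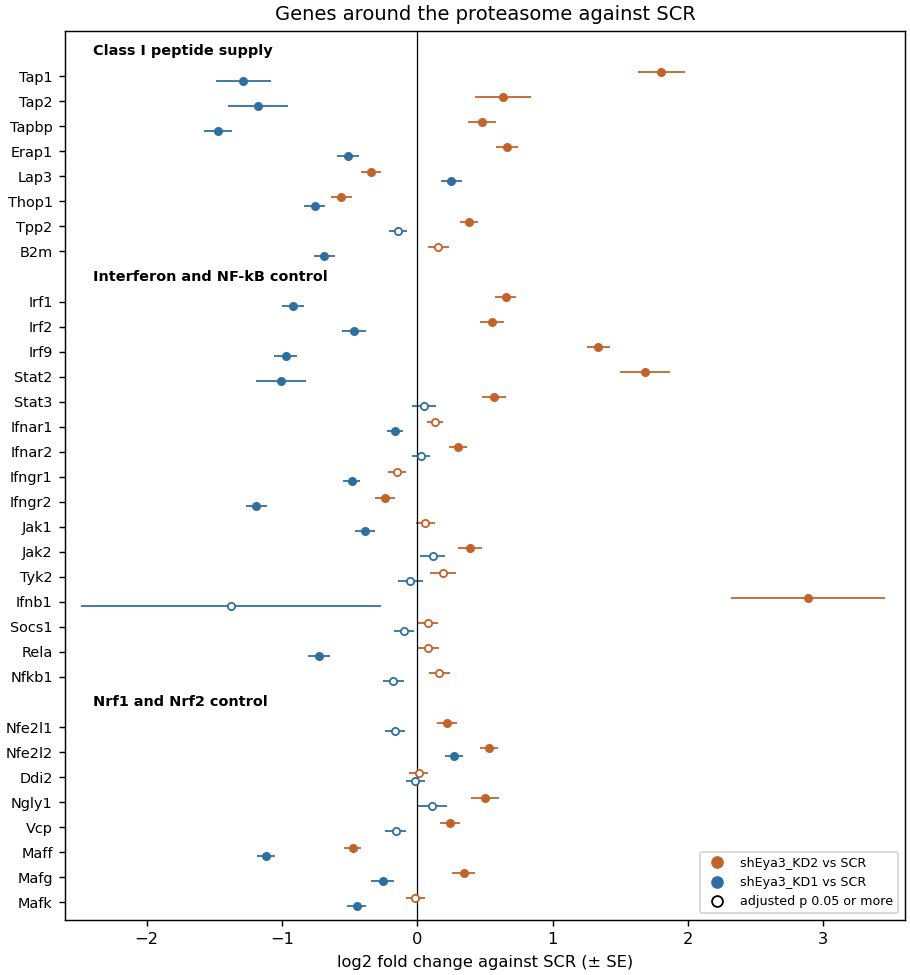
Log2 fold change against SCR (points, ± SE) in KD2 and in KD1 of the genes for class I peptide supply, interferon and NF-kB control, and Nfe2l1 and Nfe2l2 control, with open points where the adjusted p was 0.05 or more. Irf1, Irf9, Stat2, Tap1, Tap2 and Tapbp lie right of 0 in KD2 and left of it in KD1.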

How the data were processed

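Raw counts per gene, as deposited by the authors in 1 table of 9 libraries, were used. Per the submitters' processing notes, FastQC, MultiQC and STAR were used with mm10; the sources used here do not give the counting tool, annotation or strand setting. Per the labels' protocols, the library kit was NuGEN Universal Plus mRNA-Seq. Totals ran from 27758862 to 52691960 counts. Genes passing filterByExpr (15914) were fitted together with edgeR 4.0.16 in R 4.3.3 (TMM, robust quasi-likelihood, 3 groups, no covariates), with Benjamini-Hochberg adjustment over all of them and a threshold of 0.05. The fit was also run on simulated counts with far fewer changed genes than were called here, so that run cannot vouch for these calls. SE is the log2 fold change over the root of F. Lengths and coordinates come from GENCODE for mm10, and start-site windows from RefSeq. Alternatives were RLE size factors, DESeq2 1.42.0, no filter, 5 CPM in 3 libraries, only the groups compared, a replicate block, each library left out, and, after seeing the data, a length term and exon-union lengths. Named genes were the 5 inducible members, their partners, the chaperones and other activators, the extremes of each role, members called in opposite directions, and the largest changes of each pathway list, and other members by range or in passing. Members and lists were chosen with earlier results of these data known. Some genes of the pathway lists are not reported here. A protein comparison was planned and not done. Same-numbered libraries were not treated as pairs in the main fit.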

Additional observations from a re-analysis of the deposited data

Results flagged for a closer look

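For 8 members, the effects of the hairpins against SCR were called in opposite directions. The difference between the hairpins was itself called for each of them by edgeR's quasi-likelihood test, Benjamini-Hochberg adjusted. Of all tested genes, 45.3% were called in KD2 against SCR, 50.3% in KD1 against SCR and 49.6% between the hairpins. The share of all tested genes called in opposite directions was not counted. The log2 difference, KD2 minus KD1, was 2.29 for Psmb9, 1.05 for Psme2, 0.90 for Psmb10 and 0.73 for Psme1, all inducible. Among constitutive subunits it was 0.38 for Psmd11, and KD2 was lower for Psmb4 (-0.68), Psmb1 (-0.57) and Psmd4 (-0.52). For Psmb9, Psme2, Psmb1 and Psmd11, at least 1 of the calls against SCR was lost when a single library was left out.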

How the results depend on the processing

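The inducible members kept 5 higher in KD2 than in KD1 and 5 lower in KD1 than in SCR under every alternative, and their medians without 1 library ranged from 0.26 to 0.45 in KD2, -0.91 to -0.76 in KD1 and 0.96 to 1.13 for KD2 against KD1. The 4 that rose in KD2 ranged from 2 to 4 without 1 library and were 2 with 5 CPM in 3 libraries. The rise of Psme2 was also lost with RLE size factors and with DESeq2, and that of Psmb9 with only the groups compared. Without 1 library, constitutive subunits that fell ranged from 10 to 22 in KD2, 2 to 11 in KD1 and 6 to 19 in KD2 against KD1, and those that rose in KD2 from 1 to 2. The 7 that fell in KD1 were 11 when only the groups compared were fitted and 13 with the length term, which was chosen after seeing the data. Of all genes in those fits, 4270 of 15552 fell in KD1 with only the groups compared, and 4663 of 15914 with the length term. The cause of these moves was not tested. Across the alternatives, 6 values of single genes changed sign, none of them called. With the length term, KD2 minus KD1 was 0.025 for Psma7, 0.081 for Psmb3 and 0.006 for Psmc1. Without 1 library, the range was -0.075 to 0.004 for Psmc1 (KD2 minus KD1) and -0.072 to 0.041 for Mafk in KD2.

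The replicate numbers were not taken to pair the libraries: of 9 same-numbered pairs, 3 had a correlation of deviations above 0.1, and the range was -0.11 to 0.20. Pairs with different numbers ranged from -0.24 to 0.17. With 3 libraries per group, this check cannot tell whether equal numbers mark a shared batch. With the replicate block, 2 constitutive subunits rose and 21 fell in KD2, 6 rose and 10 fell in KD1, and 2 were higher and 13 lower in KD2 against KD1, while the inducible counts were 4 higher in KD2, 5 lower in KD1 and 5 higher in KD2 against KD1. With the block, Psmb5 (adjusted p = 0.0461 by edgeR's quasi-likelihood test), Psma5 and Psma6 in KD1 and Psma5, Psma7 and Psmd10 in KD2 were also called against SCR. Of the 15914 genes fitted with the block, 3674 rose and 3655 fell in KD2, and 3885 rose and 4208 fell in KD1. Between the hairpins, 4320 of them were higher in KD2 and 3697 lower. Depth limits Psmb8 in KD1, where 9 reads set its fold, and leaves Psma8 and Psmb11 untested.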
